A study of Mus musculus with 11 samples.

Results

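The tropomyosin genes Tpm1, Tpm2, Tpm3 and Tpm4 were followed in mouse Neuro-2A (N2A) cells, a neuroblastoma line, through their transcript levels and their alternative exons. They are 4 of the 52661 genes in the expression table. The genes were chosen by name as a family, and their splicing events were selected on 1 measured value, a minimum of 10 reads in every library. The family was nevertheless picked with earlier results of these libraries known, so its values describe the cells and do not stand as independent evidence. Of 49 entries for the 4 genes in the splicing table, 5 were reference sites of alternative donor or acceptor groups and were left out, and 5 had under 10 reads in a library. The remaining 39 events lay in Tpm1 (19), Tpm2 (13), Tpm3 (1) and Tpm4 (6), against 220976 events in all genes. They were 16 exons, 18 introns, 2 alternative acceptor sites and 3 alternative donor sites. The member just above the minimum, a Tpm1 intron of 1496 nt, had 16 reads in its thinnest library. The entry just below it, a Tpm2 donor site, had 2.

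Tropomyosins are coiled-coil dimers that lie along the groove of actin filaments, stabilise them and set which myosins and severing proteins reach the filament. Each gene makes several proteins through alternative promoters, internal exons that exclude each other, and alternative last exons. In Tpm1, Tpm2 and Tpm3 a choice between exon 6a and exon 6b changes an internal stretch of the coiled coil. In Tpm1 a further choice lies between exon 2a, known for its use in smooth muscle, and exon 2b, and it is a textbook case of control by polypyrimidine tract binding protein (Ptbp1).

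All groups were N2A cells, with no genetic change given in the labels, transfected with siRNA pools and harvested 48 h later. The control pools (siNT, 3 libraries) target no gene. The other pools targeted Fubp1 (2 libraries), Khsrp, also called Fubp2 (2), Khsrp and Fubp1 together (2, the double knockdown) and Rbm38 (2). The 3 targets encode RNA-binding proteins that the series calls splicing factors, and the comparisons ask what changes in splicing and transcript level when they are depleted. The labels call the replicates biological. Each group is a single line treated with a pool, so cell lines or single siRNAs were not varied. In these bulk samples, fewer cells expressing a gene and less RNA per cell cannot be told apart.

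The authors' deposited table gave each target a lower level where it was depleted, at 27.9 and 19.8 RPKM against 180 RPKM for Fubp1, 8.06 and 6.77 against 47.0 RPKM for Khsrp, and 4.03 against 34.5 RPKM for Rbm38. The median read number per tested event ran from 99 in the double knockdown replicate B to 221 in siNT replicate B. Of 11 neuroblastoma and sympathoadrenal markers, 10 reached 1 RPKM in siNT in the authors' deposited table. For other cell types this held for 1 of 7 skeletal muscle, 2 of 5 smooth muscle, 1 of 6 fibroblast, 1 of 3 endothelial and 0 of 2 immune markers. By the library numbers in the sample titles, the samples were grouped here into 1 to 4 (siNT A and B, both Fubp1 libraries) and 8 to 27 (siNT C and all others). Within the second set the knockdowns have 1 control library, siNT C, with the highest number. The labels do not name these sets or call them batches.

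The exons that carry most of the family's splicing changes are exon 6a and exon 6b of Tpm1. Both are 76 nt long and lie wholly in coding sequence, so exchanging them keeps the reading frame. By exon and intron lengths they matched GENCODE vM21 exons on the minus strand of chromosome 9 (GRCm38), exon 6a at chr9:67032466-67032541 and exon 6b at chr9:67031951-67032026. The splicing table places them at chr9:66880273-66880348 and chr9:66879758-66879833, in a build not given in the sources used here. Exon 6a is in 6 and exon 6b in 10 of 16 annotated coding transcripts. The pair is shown 5′ to 3′ on the transcript strand, with the bases that differ from the partner exon in capitals.
Tpm1 exon 6a: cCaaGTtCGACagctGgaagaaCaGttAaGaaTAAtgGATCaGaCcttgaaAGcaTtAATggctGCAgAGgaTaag
Tpm1 exon 6b: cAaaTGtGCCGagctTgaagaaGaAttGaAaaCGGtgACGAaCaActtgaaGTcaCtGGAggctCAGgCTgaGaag
Within Tpm1 the exons were identical at 43 of 76 positions (56.6%). The corresponding pair of Tpm2 (minus strand, chr4:43519003-43519078 and chr4:43518644-43518719, GRCm38) is shown in the same way, since it is the other exon 6 pair with events in the data.
Tpm2 exon 6a: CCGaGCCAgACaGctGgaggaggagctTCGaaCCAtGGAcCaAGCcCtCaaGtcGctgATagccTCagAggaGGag
Tpm2 exon 6b: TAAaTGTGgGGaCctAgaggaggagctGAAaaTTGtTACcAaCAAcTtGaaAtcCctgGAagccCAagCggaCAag
Tpm1 exon 6a shared more positions with exon 6a of Tpm2 (64.5%) and Tpm3 (65.8%) than with its own partner. Tpm1 exon 6b likewise shared 73.7% with exon 6b of Tpm2 and 75.0% with that of Tpm3. Tpm4 has a single annotated exon of this length, which shared 71.1% to 73.7% with the 6b exons and 43.4% to 55.3% with the 6a exons. The motif GTGTG, a sequence of the GU-rich kind that Rbm38 is known to bind, was searched on both strands. It was absent from all 6 exons of Tpm1, Tpm2 and Tpm3 and occurred once in the Tpm4 exon, against 8.0% of 985 annotated coding exons of 76 nt on the transcript strand and 5.2% on the other.

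**Figure D1:**
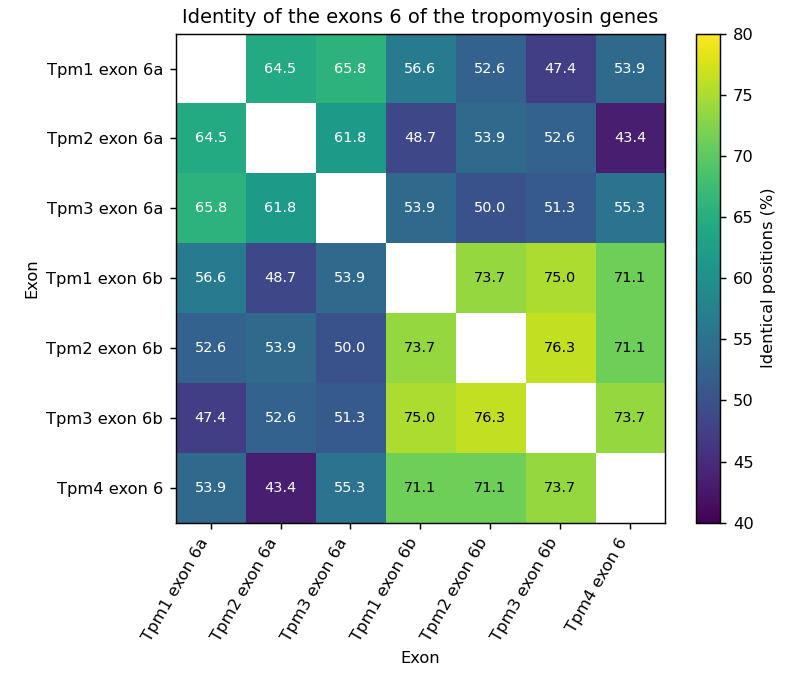
Percent of the 76 positions that are identical between each pair of exons 6 of the tropomyosin genes, without gaps. The 6b exons and the Tpm4 exon form a block at 71.1% to 76.3%, the 6a exons one at 61.8% to 65.8%, and values between the blocks run from 43.4% to 56.6%.

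The splice sites around exon 6a are shown from an annotated Tpm1 transcript that retains the flanking introns (chr9:67032386-67032621, GRCm38, minus strand), with the exon in capitals and 80 nt of intron on each side.
Tpm1 exon 6a with introns: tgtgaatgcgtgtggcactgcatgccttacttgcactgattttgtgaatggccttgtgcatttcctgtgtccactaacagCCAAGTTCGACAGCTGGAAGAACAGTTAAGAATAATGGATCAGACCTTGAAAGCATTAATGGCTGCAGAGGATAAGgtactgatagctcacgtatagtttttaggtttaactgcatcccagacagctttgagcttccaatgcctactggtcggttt
GTGTG occurred 1 time in the 80 nt of intron before the exon and 0 times in the 80 nt after it, on the transcript strand. It had 0 matches on the other strand of either stretch, and the share of other introns that hold it was not computed.

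In control cells Tpm1 used both exons to a similar extent. The percent spliced in (PSI) is the share of informative reads in which the exon is included, the intron is retained or the splice site is chosen. Exon 6a had a PSI of 47.3%, 43.2% and 41.9% in the siNT libraries. Exon 6b had one of 50.9%, 55.3% and 55.8% in the same libraries. Their sum lay between 94.9% and 102.4% in the 11 libraries, so what one exon gained the other lost. The exons share their flanking exons and therefore reads, and they count as a single switch rather than 2 findings. With 848 to 1758 reads for exon 6a, the Wilson 95% interval of a library's PSI spanned 1.98 to 3.18 points on either side, which covers counting error only.

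Knockdown of Fubp1 moved Tpm1 towards exon 6a. Exon 6a stood at 59.9% and 60.2% in the Fubp1 libraries and exon 6b at 35.0% and 37.3%, and neither range overlapped with siNT. The means were 60.05% ± 0.24 (SD, n = 2) against 44.2% ± 2.82 (SD, n = 3) for exon 6a, a difference of 15.9 points (log2 odds 0.93, SE 0.13, limma adjusted p = 0.00669). For exon 6b the mean fell by 17.8 points (limma adjusted p = 0.00281). Within library numbers 1 to 4 exon 6a differed by 14.8 points. Without weights neither exon was called (adjusted p = 0.248 for exon 6a and 0.187 for exon 6b). The call of exon 6a was also lost with no limit on mean PSI (adjusted p = 0.0787), and without Fubp1 replicate A (0.0697) or B (0.0689), which leaves 1 library in the group.

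Knockdown of Khsrp moved the switch the same way. Exon 6a reached 66.8% and 66.1%, and exon 6b 35.0% and 33.1%, again outside the siNT range. The difference was 22.3 points for exon 6a (log2 odds 1.33, SE 0.15, limma adjusted p = 0.0137). Exon 6b fell by 19.96 points (limma adjusted p = 0.0253). Against siNT C alone, the only control with a library number from 8 to 27, exon 6a differed by 24.5 points. The call of exon 6a was lost without siNT B (adjusted p = 0.0765), Khsrp A (0.514) or Khsrp B (0.156), with a term for the library numbers (0.139), without weights (0.258), with only the compared groups (0.252) and with no limit on mean PSI (0.168). That of exon 6b was lost without any 1 of siNT B, the Fubp1 libraries, the Khsrp libraries or the double knockdown libraries (adjusted p = 0.0636 to 0.514). It was also lost with the library number term (adjusted p = 0.236), without weights (0.289), with only the compared groups (0.328) and with no limit on mean PSI (0.204).

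The double knockdown gave the highest use of exon 6a. Exon 6a stood at 76.6% in both libraries, and exon 6b at 24.9% and 25.8%. Compared with siNT, exon 6a was 32.4 points higher (log2 odds 2.05, SE 0.14, limma adjusted p = 1.18e-05), and exon 6b fell by 28.7 points (adjusted p = 3.21e-05). Both calls were kept in all 21 alternative settings, with adjusted p up to 0.00198 and 0.00318.

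The double knockdown was also set against each single knockdown. Exon 6a was 16.5 points above the Fubp1 knockdown (limma adjusted p = 0.00197) and 10.1 points above the Khsrp knockdown (adjusted p = 0.0333). Exon 6b fell by 10.8 points against the Fubp1 knockdown (adjusted p = 0.0270). Against the Khsrp knockdown its difference of -8.72 points did not pass (adjusted p = 0.0881). Without weights 0 tropomyosin events were called by limma against either single knockdown, and with the library number term 0 against the Fubp1 knockdown. Against the Khsrp knockdown the call of exon 6a was lost without any 1 of the Fubp1, Khsrp or double knockdown libraries and with no limit on mean PSI. The effect of the double knockdown on exon 6a differed from the sum of the single effects by -0.21 on the log2 odds scale (SE 0.21, limma adjusted p = 0.958). For exon 6b this difference was 0.44 (SE 0.22, adjusted p = 0.790). The Khsrp and Fubp1 knockdowns differed by 6.40 points for exon 6a (log2 odds 0.40, SE 0.16, adjusted p = 0.363). These misses do not show that effects add up or that the single knockdowns act alike.

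Knockdown of Rbm38 moved Tpm1 the other way, towards exon 6b. Exon 6a fell to 33.7% and 26.4%, and exon 6b rose to 67.2% and 72.1%. Both libraries lay outside the siNT range, with a wider spread between them than in the other groups (SD 5.15 points for exon 6a). The mean of exon 6a fell by 14.1 points (log2 odds -0.92, SE 0.14, limma adjusted p = 0.0392) and that of exon 6b rose by 15.7 points (log2 odds 0.98, SE 0.12, adjusted p = 0.0107). Compared directly, the Rbm38 and Khsrp knockdowns differed by -36.4 points for exon 6a and 35.6 points for exon 6b (limma adjusted p = 3.78e-04 for each). Khsrp transcript itself was lower in the Rbm38 knockdown in the authors' deposited table, at 33.8 against 47.0 RPKM (log2 fold change -0.70, FDR 0.0243). In the Khsrp knockdown it stood at 8.06 RPKM in the authors' deposited table. Whether the lower Khsrp level after Rbm38 knockdown bears on exon 6 was not tested. The call of exon 6a against siNT was lost in 14 of 21 alternatives, among them leaving out Rbm38 B (adjusted p = 0.351), no weights (0.400) and the term for library numbers (0.520), where the difference was -11.8 points. Exon 6a was also not called without any 1 of siNT A, siNT B, the Fubp1 libraries, the Khsrp libraries or the double knockdown libraries (adjusted p = 0.082 to 0.148). That of exon 6b was lost in 6 of 21. These were the library number term (adjusted p = 0.357, 13.9 points), no weights (0.342), only the compared groups (0.296), no limit on mean PSI (0.114) and leaving out siNT B (0.0562) or Rbm38 B (0.150).

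**Figure D2:**
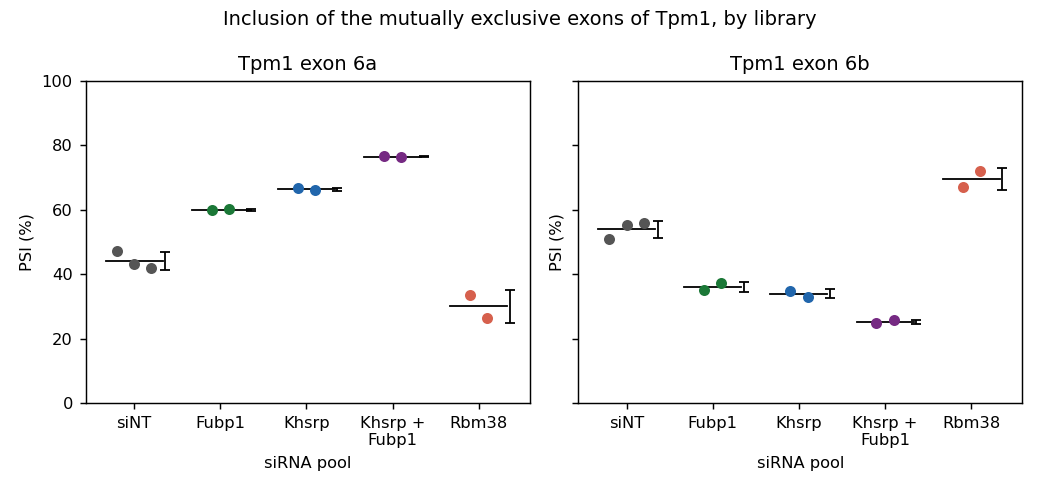
PSI in percent of Tpm1 exon 6a (left) and exon 6b (right) for each siRNA pool. Points are libraries, horizontal lines group means and brackets ± 1 SD (n = 3 for siNT, n = 2 otherwise); exon 6a runs from Rbm38 (30.1%) through siNT (44.2%), Fubp1 (60.05%) and Khsrp (66.4%) to the double knockdown (76.6%), and exon 6b runs the opposite way.

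Ordered by exon 6a, the groups ran Rbm38, siNT, Fubp1, Khsrp, double knockdown, and no library of a group overlapped with its neighbours. The tests of neighbouring groups passed in the main fit, apart from Fubp1 against Khsrp. Both exons were also marked as changed in all 4 knockdowns in the authors' deposited table of splicing calls. The tested Tpm2 acceptor site and Tpm4 donor site were not matched to the authors' calls. Of the 7 tested exons and 5 tested introns, the authors' deposited table marks 4 for Fubp1, 2 for Khsrp, 7 for the double knockdown and 2 for Rbm38. These include events not called here, such as the last intron after Fubp1 knockdown and, in the double knockdown, Tpm2 exon 6b and the Tpm1 exon after exon 8. The authors' table marks 0.707% of all its events in the Rbm38, 1.26% in the Fubp1, 0.655% in the Khsrp and 3.71% in the double knockdown.

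The exon 2 pair did not vary. Exon 2b stood at 100% in every library, with 535 to 2218 reads, and exon 2a between 0% and 0.39%, with 264 to 1176 reads. A library at 0% could still hold exon 2a in up to 0.391% to 1.14% of the transcripts that make this choice (3 counts of the reads, over the libraries at 0%). These exons lay outside the mean PSI range of 1% to 99% that was required for the test.

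Near the 3′ end of Tpm1, the last intron had a higher PSI in the double knockdown. This intron of 6463 nt joins exon 8 to the most distal last exon and matches chr9:67024566-67031028 in GRCm38. The acceptors of 2 other annotated last exons lie inside it, and 0 annotated last exons run over its 3′ end. Whether transcripts that end inside the intron add to the reads counted as retained was not tested. Its PSI was 29.0%, 23.8% and 33.3% in siNT, 57.9% and 46.7% in the Fubp1 libraries and 75.0% and 58.5% in the double knockdown libraries. It was 30% and 46.3% in the Khsrp libraries and 19.4% and 32.0% in the Rbm38 libraries. The Fubp1 and double knockdown libraries lay above all siNT libraries, while 1 Khsrp library and 1 Rbm38 library lay among them. The double knockdown was 38.0 points above siNT (log2 odds 2.52, SE 0.46, limma adjusted p = 0.00536), and the Fubp1 difference of 23.6 points did not pass (adjusted p = 0.151). Only 30 to 77 reads cover this event, against 848 to 1758 for exon 6a of the same gene. A 79 nt exon inside the interval had 342 to 679 reads per library at a PSI of 0.78% to 5.06%. Most of those reads thus join exon 8 to an acceptor inside the interval. The PSI of the last intron is a share of its own few reads, not of all Tpm1 transcripts. A library's 95% interval spans 9.47 to 16.8 points on either side. The call was lost without double knockdown replicate A (adjusted p = 0.114) and with the library number term (0.192).

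A 79 nt coding exon that follows exon 8 of Tpm1 had a PSI of 2.10%, 1.52% and 1.13% in siNT and 4.70% and 5.06% in the double knockdown, 3.297 points higher (limma adjusted p = 0.0244) and thus under the 10 points required for a call. It had 2.99% and 4.28% in the Fubp1, 1.88% and 3.08% in the Khsrp and 0.78% and 0.86% in the Rbm38 libraries. The intron after it, picked out here after its values were seen, differed by -29.7 points between the double and the Fubp1 knockdown (adjusted p = 0.0360). Its PSI was 64.8% and 46.3% against 89.2% and 81.2%, on 16 to 88 reads per library. The spliced reads of this intron join the rarely included 79 nt exon, so its PSI is not independent of that exon's values. Against siNT (78.3%, 90.2% and 69.7%) the double knockdown differed by -23.8 points, which did not pass (adjusted p = 0.0730). The intervals from exon 5 to exon 6b and from exon 6b to exon 7 are also listed as introns. They were retained 5.75 and 5.72 points more in the double knockdown than in siNT (limma adjusted p = 0.0193 and 0.0273), and their spliced reads join exon 6b, so they are not independent of the exon 6 values. The second of them was retained at a mean of 8.78% after Fubp1 knockdown and 8.72% in the double knockdown, against 3.0% in siNT. Tpm1 exons outside these alternatives stayed between 98.7% and 100%.

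Tpm2 used exon 6b almost alone. Exon 6a stood at 2.24%, 3.31% and 5.68% in siNT and at 7.43% and 8.08% in the double knockdown, where it was 4.01 points higher (log2 odds 1.24, SE 0.34, limma adjusted p = 0.0421). Exon 6b stood at 97.8%, 96.0% and 96.9% in siNT and at 93.2% and 92.7% in the double knockdown (difference -3.98 points, adjusted p = 0.0540). Both differences were under the required 10 points, and no other knockdown library of exon 6a exceeded 4.95%. Against siNT C, the only control with a library number from 8 to 27, the double knockdown differed by 2.08 points for exon 6a. With the library number term its limma adjusted p was 0.790.

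Tpm3 and Tpm4 each had a single tested event, and neither was called. The Tpm3 event is a 79 nt coding exon after exon 8 (plus strand, chr3:90091013-90091091, GRCm38), included at 94.7%, 96.2% and 93.2% in siNT. Of the knockdown libraries, 7 lay between 91.0% and 96.2%, and double knockdown replicate B stood apart at 83.6% on 110 reads. The difference of the double knockdown from siNT was -5.33 points (limma adjusted p = 0.432), and 0.43 points without that library. Exon 6a and exon 6b of Tpm3 had no event with enough reads. In Tpm4 a donor site that lengthens the first exon by 467 nt was used in 1.45%, 1.56% and 3.06% of siNT reads. Double knockdown B (7.79%) and Rbm38 A (5.62%) stood above all others, while their partner libraries had 3.17% and 1.70%. These high libraries also had the fewest reads at the site, 1925 and 1833 against 2517 to 8636 elsewhere, and the part of read number in the values was not tested. Without double knockdown replicate A, the difference of the double knockdown from siNT was 5.77 points (limma adjusted p = 0.0260) in place of 3.46 points (adjusted p = 0.124), and without replicate B it was 1.15 points (0.271).

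**Figure D3:**
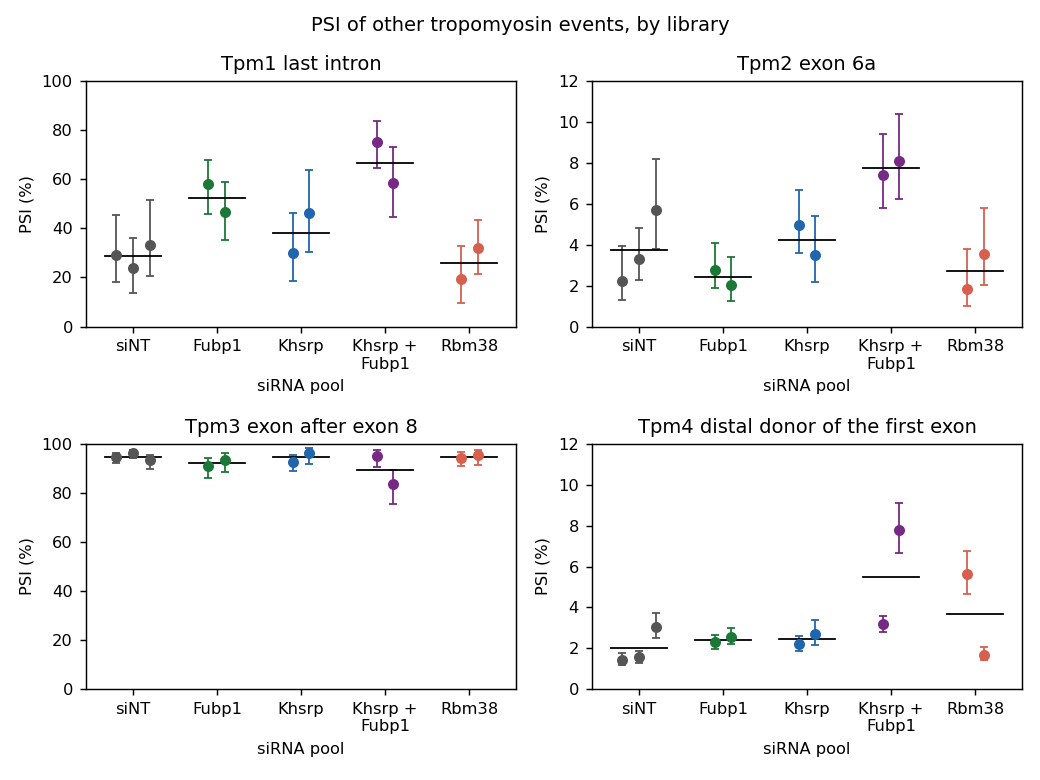
PSI in percent, by siRNA pool, of the Tpm1 last intron, Tpm2 exon 6a, the Tpm3 exon after exon 8 and the Tpm4 distal donor site, on axes of different range. Points are libraries with Wilson 95% intervals (counting error only) and lines are group means; the double knockdown is above siNT for the last intron (58.5% and 75.0%) and Tpm2 exon 6a (7.43% and 8.08%), and its libraries disagree for Tpm3 and Tpm4.

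Of the 39 events, 25 had a mean PSI under 1% or over 99%, and 14 were tested. An event was called at an adjusted p under 0.05 over all 60139 tested events and a PSI difference of at least 10 points. After Fubp1 knockdown 2 of 14 were called, 1 in each direction, against 0.91% of all events (0.226% higher and 0.683% lower). After Khsrp knockdown it was 2 of 14, 1 in each direction, against 0.0482% (0.0166% higher and 0.0316% lower). In the double knockdown it was 3 of 14, with 2 higher and 1 lower, against 6.28% (1.67% higher and 4.61% lower). After Rbm38 knockdown it was 2 of 14, 1 in each direction, against 0.185% (0.146% higher and 0.0382% lower). The called events were exon 6a and exon 6b in every case, plus the last intron in the double knockdown, so the counts rest on 1 or 2 places in Tpm1. Of the 14, 3 were called between the double and Fubp1 knockdowns (3.38% of all events), 1 between the double and Khsrp knockdowns (3.67%) and 2 between the Rbm38 and Khsrp knockdowns (0.264%). For the double knockdown against the sum of single effects limma called 0 of 14 (0.0931% of all events), with 3 at an unadjusted p under 0.05. For Khsrp against Fubp1 it called 0 of 14 (0.432%), with 2 at an unadjusted p under 0.05. The median absolute PSI difference of the 14 events from siNT was 2.65 points (Fubp1), 1.00 points (Khsrp), 4.67 points (double) and 1.33 points (Rbm38), against 1.31, 1.28, 2.01 and 1.21 points over all tested events.

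**Figure D4:**
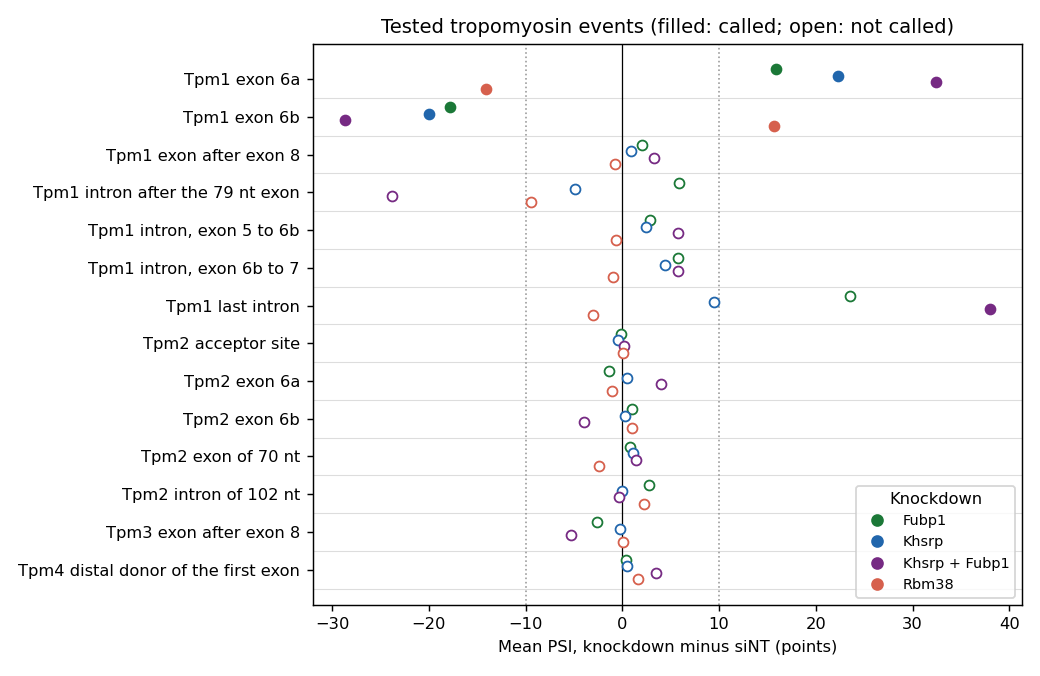
Difference of mean PSI from siNT, in points, for the 14 tested tropomyosin events in the 4 knockdowns; dotted lines mark the 10 points required for a call, filled points were called and open points were not. Exon 6a and exon 6b of Tpm1 are called in all 4 knockdowns, with Rbm38 on the opposite side of 0, and the last intron in the double knockdown.

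Transcript levels came as 1 RPKM value per group, so they carry no error here, and the tests quoted are the authors'. Tpm4 and Tpm3 made up most of the family's RPKM in siNT (54.6% and 33.0% of 803 RPKM in the authors' deposited table), followed by Tpm1 (8.8%) and Tpm2 (3.6%). Tpm2 responded to most knockdowns. In the authors' deposited table it stood at 29.2 RPKM in siNT, 39.4 after Fubp1, 46.1 after Khsrp, 70.3 after double and 27.3 after Rbm38 knockdown. Its deposited log2 fold changes were 0.45 (authors' FDR 0.00344), 0.54 (0.00116), 1.16 (8.98e-18) and -0.23 (0.261). Tpm1 stood at 70.5, 80.8, 53.8, 100 and 74.1 RPKM in the same order in the authors' deposited table. It rose only in the double knockdown by the authors' test (log2 fold change 0.65, FDR 0.00232), with the Khsrp knockdown at -0.27 (FDR 0.476). Tpm4, at 438 RPKM in siNT and 601 RPKM in the double knockdown, rose there by 0.47 on the log2 scale of the authors' deposited table (FDR 0.00997). Tpm3 had 265 RPKM in siNT and between 159 and 246 RPKM in the knockdowns, and in the authors' deposited table it passed only for Rbm38 (log2 fold change -0.72, FDR 1.82e-05).

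By the authors' deposited table, 1 of the 4 genes passed after Fubp1 knockdown, against 22.5% of the 23378 genes tested. After Khsrp knockdown it was 1 of 4 against 8.16%, in the double knockdown 3 of 4 against 26.8%, and after Rbm38 knockdown 1 of 4 against 15%. The calls were higher except for Tpm3 after Rbm38 knockdown. The ratio of RPKM values differed from the deposited fold change for Tpm3 in the double knockdown, at -0.41 against -0.15 on the log2 scale. Whether the double knockdown differed from the single ones in level could not be tested with 1 value per group.

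**Figure D5:**
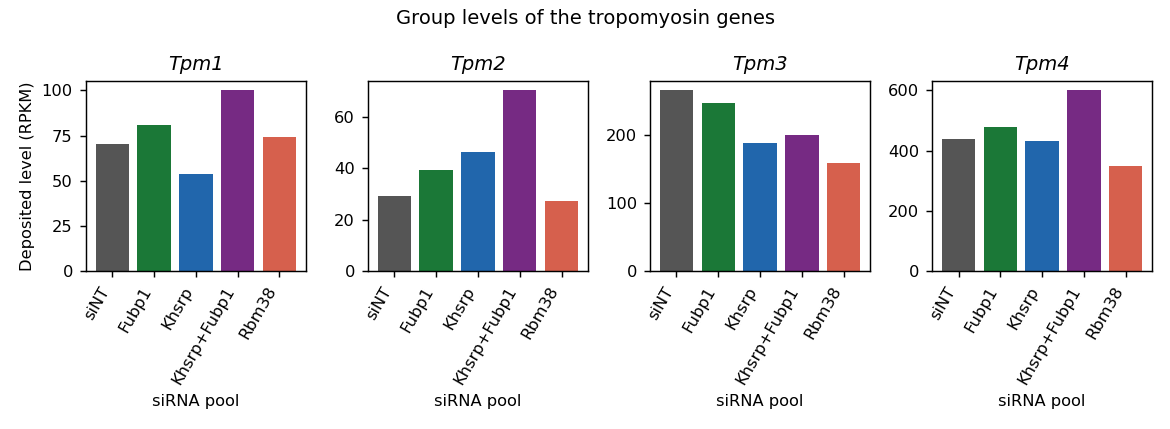
Deposited level in RPKM of Tpm1, Tpm2, Tpm3 and Tpm4 for each siRNA pool (1 authors' value per group, so no error bars), with a separate axis from 0 for each gene. Tpm1, Tpm2 and Tpm4 are highest in the double knockdown (100, 70.3 and 601 RPKM), and Tpm3 is lowest after Rbm38 knockdown (159 RPKM).

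Level and exon choice together set how much of each Tpm1 form is present. The authors' deposited RPKM of Tpm1 times the mean PSI gave 31.1 RPKM with exon 6a in siNT, 48.5 after Fubp1, 35.7 after Khsrp, 76.7 after double and 22.3 after Rbm38 knockdown. The same product of authors' deposited level and PSI for exon 6b was 38.1, 29.2, 18.3, 25.4 and 51.6 RPKM. In the double knockdown the exon 6a form was thus higher through both a higher level and a higher share. After Khsrp knockdown the share of exon 6a rose while the gene's level did not. These products are descriptive, without error or test.

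Partners of tropomyosin on actin filaments were read from lists in the authors' deposited table, beside the share of all genes that passed in that direction (higher 12%, 3.82%, 13.2% and 7.96%, and lower 10.5%, 4.34%, 13.7% and 7.02%, for Fubp1, Khsrp, double and Rbm38). Among 6 actins, 4 rose after Fubp1, 3 after Khsrp, 4 after double and 0 after Rbm38 knockdown, and none fell. The genes that rose were muscle actins, not the abundant cytoplasmic Actb and Actg1. Among them, Acta1 and Actc1 had only 0.15 and 0.13 RPKM in siNT in the authors' deposited table. Acta2, the smooth muscle actin, went from 3.89 RPKM in siNT to 22.9, 9.01 and 60.9 RPKM in the Fubp1, Khsrp and double knockdowns in the authors' deposited table, and stood at 4.12 RPKM after Rbm38 knockdown. The median log2 fold change over the 6 actins was 2.09, 1.22, 2.34 and -0.25, against 0.00, 0.00, 0.00 and 0.02 over all genes in the authors' deposited table.

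Of 9 tested myosin II genes in the authors' deposited table, 5, 3, 3 and 2 rose in the same order of knockdowns. In that order 0, 1, 1 and 2 fell, with direction taken from the deposited log2 fold change. The genes counted as higher after Fubp1 knockdown include Myh11 and Myh14, at only 0.02 and 0.31 RPKM in siNT in the authors' deposited table. For Myh14 the authors' deposited fold change was 0.88 on the log2 scale (FDR 0.0289), but its RPKM after Fubp1 knockdown was lower, at 0.14. By the authors' deposited values Myh11 was also counted after Khsrp and double knockdown, at 0.04 and 1.03 RPKM. Myl9, a regulatory light chain, went from 4.71 RPKM to 42.3 (Fubp1), 54.9 (Khsrp), 139 (double) and 8.03 RPKM (Rbm38) in the authors' deposited table, and passed in all 4. Among 7 caldesmon, calponin and transgelin genes, 2, 3, 4 and 1 rose and 1, 0, 1 and 2 fell by the authors' deposited FDR. The calponin Cnn2 ran from 66.4 RPKM in siNT to 125, 94.6 and 207 RPKM in the Fubp1, Khsrp and double knockdowns and 23.02 RPKM after Rbm38 knockdown in the authors' deposited table. It passed in each, and Cnn1, at 0.23 RPKM in siNT, also fell after Rbm38 knockdown in the authors' deposited table. Of 6 genes of the serum response factor pathway, which drives many actin genes, 4, 2, 3 and 0 rose and 0, 0, 0 and 3 fell by the authors' deposited FDR. That list shares Cnn2 and Tagln with the calponin list.

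Other filament lists held genes that passed in both directions. Of 8 tested filament end proteins, 0, 0, 3 and 1 rose and 3, 1, 3 and 1 fell in the authors' deposited table. The 3 that rose in the double knockdown include Lmod1, at 0.03 RPKM there and 0.0 RPKM in siNT in the authors' deposited table. Of 7 tested troponins, by contrast, 0, 0, 2 and 2 rose and none fell by the authors' deposited FDR. Only 3 of the 8 listed troponins reached 1 RPKM in siNT. Tnni2, counted as higher in the double knockdown, had 0.02 RPKM in siNT and 0.23 there in the authors' deposited table. Among 5 severing and depolymerising proteins, 1, 1, 1 and 0 rose and 3, 0, 1 and 0 fell in the authors' deposited table. Among 13 nucleators and cross-linkers 3, 0, 1 and 0 rose and 3, 3, 1 and 5 fell in that authors' deposited table.

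Markers of smooth muscle moved with the actin and calponin genes, and share Acta2, Cnn1 and Myh11 with the lists above. Of 5 such markers, 2, 3, 4 and 0 rose and 0, 0, 0 and 2 fell in the authors' deposited table. Their summed level there was 12.1 RPKM in siNT and 32.8, 23.8, 84.7 and 9.91 RPKM in the Fubp1, Khsrp, double and Rbm38 knockdowns by the authors' deposited values. Myocd, the defining smooth muscle coactivator, was between 0.02 and 0.06 RPKM in all groups of the authors' deposited table. Of 11 neuroblastoma markers, 1, 0, 0 and 2 rose and 2, 1, 4 and 2 fell by the authors' deposited FDR, with sums of 963 RPKM in siNT and 803 to 1151 RPKM in the knockdowns. Among 6 fibroblast markers, 1, 0, 2 and 3 rose and 0, 0, 1 and 0 fell by the authors' deposited FDR, with sums of 1.60 RPKM in siNT and 1.88 to 2.71 RPKM in the knockdowns. Of 5 tested skeletal muscle markers, 1, 0, 0 and 2 rose and none fell by the authors' deposited FDR, with sums of 32.1 RPKM in siNT and 24.1 to 43.9 RPKM in the knockdowns. Most of these sums came from Myh3, at 31.1 RPKM in siNT and 22.8 to 43.2 RPKM in the knockdowns in the authors' deposited table. Des and Tnnt3, which rose after Rbm38 knockdown, had only 0.4 and 0.5 RPKM in siNT in the authors' deposited table. The part of cell state in the tropomyosin results was not tested.

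RNA-binding proteins known to act on tropomyosin exons or related ones were a further list, of which 22 were tested. By the authors' deposited FDR, 1, 0, 0 and 1 rose and 6, 3, 8 and 9 fell in the order Fubp1, Khsrp, double and Rbm38, counting Khsrp or Rbm38 where it was the target. Ptbp2, the neuronal relative of Ptbp1, passed as lower in all 4, from 104 RPKM in siNT to 73.7, 52.8, 43.3 and 72.7 RPKM in the authors' deposited table. Ptbp1 passed only after Rbm38 knockdown, at 247 against 396 RPKM in the authors' deposited table. Mbnl1, a repressor and activator of muscle-type exons, was lower in the Khsrp and double knockdowns (46.0 and 40.2 against 83.3 RPKM by the authors' deposited values). Rbfox1, a neuronal and muscle splicing factor, was lower after Fubp1 and double knockdown (1.06 and 0.59 against 4.54 RPKM in the authors' deposited table). Whether any of these bears on exon 6 was not tested.

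Genes with the pattern most like each tropomyosin were taken over the 4 log2 fold changes of the authors' deposited table, among 9647 genes of at least 5 RPKM in siNT. For Tpm2 these were Fam234b, Stbd1 and Dstn (Euclidean distance 0.214 to 0.233), and for Tpm1 they included Fam98c (0.206) and Ndufaf7 (0.210). For Tpm3 they were Taok1, Dnajc8 and Ddx21 (0.092 to 0.153), and for Tpm4 Pfkfb1, Raly and Gm23205 (0.051 to 0.080). Dstn, an actin-depolymerising factor, ran from 291 RPKM in siNT to 567 RPKM in the double knockdown in the authors' deposited table. For the Tpm1 last intron, the tropomyosin event with the largest difference, the nearest events of other genes over the 11 libraries were an exon of Phldb1 (mean absolute difference 5.23 points), an intron of Fnbp4 (5.90 points) and an exon of 5133400J02Rik (5.99 points). For exon 6a, a comparison added after the data were seen, they included a 78 nt exon of Sbf1 (5.11 points) and a 126 nt exon of Dgkh (5.71 points). The Sbf1 exon had mean PSI values of 47.7% in siNT, 49.1% (Fubp1), 64.7% (Khsrp), 80.4% (double) and 36.2% (Rbm38).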

How the data were processed

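Polyadenylated RNA of 11 N2A libraries was sequenced with a stranded protocol, per the labels' protocols. Replicate letters were taken from the descriptions, as 1 Fubp1 title carries a different letter. The authors deposited 1 RPKM value per group with log2 fold changes, p-values and FDR of each knockdown against siNT, which were read as deposited. The submitters' processing notes name mm10, Salmon 0.14.1 and edgeR. The making of the group RPKM values is not described in the labels. The splicing table deposited by the authors, in vast-tools layout, holds PSI per library in percent with corrected inclusion and exclusion reads. Another table deposited by the authors holds a PSI score per group, which reaches slightly past a plain percent scale, and True or False calls.

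The splicing table holds 401633 entries for 358106 events, and 37194 entries for the first site of a group were left out. Each remaining entry was counted as an event. Those with at least 10 reads in every library and a mean PSI from 1 to 99 were tested (60139). Log2 odds (inclusion over exclusion reads, each plus 0.5) were fitted in limma 3.58.1 (R 4.3.3) with 1 mean per group over all 11 libraries, weights (reads + 1) × p × (1 - p), where p is the group's pooled PSI, and empirical Bayes moderation with a trend over reads. P-values were adjusted by Benjamini-Hochberg over all events within each of 9 comparisons. The fit was tested on simulated reads with a library SD of 0.25 log2 odds, set alike for every event and not estimated from the libraries. Equally many events were changed in each simulated knockdown, while from 0.0482% (Khsrp) to 6.28% (double) of events were called in the data. Recovery and false calls in the data may therefore differ from those simulated. Over the 4 simulated knockdowns the fit called 52 to 69 of 100 events changed by 15 points. Of 100 changed by 30 points it called 79 to 88, with 1 to 3 false calls per knockdown. An event not called can thus have changed by 15 points. Reads carry no molecular identifiers.

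The genes, lists and tests were chosen with earlier results of these data known. All 4 genes are named, and of their events those called in a knockdown, the event with the largest difference for genes without a call, and exons of known alternative pairs. Exon coordinates of the splicing table do not follow GRCm38, so exons were matched to GENCODE vM21 by exon and intron lengths, and sequences were read from its transcripts. No proteins were analysed here. Of the genes and events with the most similar patterns, 2 are not reported here. Same-lettered replicates were not treated as pairs. Alternatives were other weights, read minimums, added reads, PSI limits, a replicate block, a library number term, fits of only the compared groups and leaving out each library.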

Additional observations from a re-analysis of the deposited data

How the results depend on the processing

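No direction reversed for any called event. Without weights the count of called tropomyosin events was 0 in the Fubp1, Khsrp and Rbm38 knockdowns and 0 for the double against each single knockdown. With weights from each library's own variance it was 2 for the double against the Khsrp knockdown. With a term for library number it was 0 for Khsrp, 0 for Rbm38 and 0 for the double against the Fubp1 knockdown. With only the compared groups it was 0 for Khsrp, 0 for Rbm38 and 0 for Rbm38 against Khsrp. With no minimum difference it was 7 in the double knockdown and 5 for the double against the Fubp1 knockdown. With a minimum of 1 read it was 1 for Rbm38. With no PSI limit, where many more events were tested, it was 1 for Fubp1, 0 for Khsrp, 0 for Rbm38, 1 for the double against Fubp1 and 0 for the double against Khsrp. Leaving out each library in turn gave 1 to 2 (Fubp1), 0 to 2 (Khsrp), 2 to 3 (double), 0 to 2 (Rbm38), 1 to 3 (double against Fubp1), 0 to 1 (double against Khsrp), 2 (Rbm38 against Khsrp), 0 (sum of effects) and 0 (Khsrp against Fubp1). The cause of these changes was not tested. For expression, a 1.5-fold ratio of RPKM in place of the authors' FDR gave 0 genes for Fubp1 and 1 for the double knockdown, with 0.1 or 1 added. Over the named events and alternatives, 45 differences lost the call, 2 gained it, 15 without a call moved by more than the spread between replicates, and 610 kept their call status within these limits. Some small differences that were not called changed sign, such as that of the Tpm3 exon after Khsrp knockdown, which was -0.27 points and 1.22 points with the library number term. The replicate block changed no count of tropomyosin events, and its count in the double knockdown was 3. Deviations of same-lettered libraries correlated between -0.062 and 0.058 across events, so the letters were not taken as pairs. Expression could not be refitted, since no library values were used here, so no paired analysis was possible for it because each group has 1 value. Depth limits the last intron and the intron after the 79 nt exon most, with as few as 30 and 16 reads in a library.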
